A study of Mus musculus with 10 samples.

Results

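The transcripts of 36 genes of the p53 pathway were followed in the mouse embryonic stem cell line E14, in 4 wild-type libraries and 6 libraries with the ANKRD11 Y347A mutation. The 36 genes were the rows of the deposited expression table, 55401 genes in all, whose name equals an entry of a list of p53, its regulators and its targets. All cells were untreated E14 cells, labelled as embryo tissue, and the mutant cells had been made by CRISPR/Cas9 editing and differ from the controls, as far as the labels say, only in that mutation. ANKRD11 is a nuclear protein with ankyrin repeats, and the series concerns its binding to cohesin in neural and facial development. Wild-type cells gave 2 numbered sets and mutant cells 3, each with 2 libraries of poly(A) RNA. Whether the sets are separate clones, cultures or harvests is not labelled, so p-values reflect only how much these sets vary, which may be technical.

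p53, encoded by Trp53, is a transcription factor that is stabilised after DNA damage and other stresses and then switches on genes for cell cycle arrest, DNA repair, metabolic defence and cell death. Its amount is set mostly at the protein: Mdm2 is the ubiquitin ligase that sends it to the proteasome, Mdm4 covers its activation domain, and the phosphatase Ppm1d removes activating phosphates. Mdm2 and Ppm1d are themselves p53 targets and close feedback loops. Embryonic stem cells are known for abundant p53. Only RNA was measured here, so nothing is known from these libraries about p53 protein or its modification.

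By role, 6 of the 36 genes are p53 itself, its relative Trp73 and regulators, and 30 are targets. The list was named for non-apoptotic targets, yet Fas, Tnfrsf10b, Perp, Ei24 and Aen are also linked to cell death, so the 30 are called targets below. A gene was tested where its mean over the 10 libraries reached 1 TPM (a transcript abundance scaled for transcript length and to the same total in every library), which 32 of the 36 did. All 32 had a mean of at least 1 TPM in both genotypes. Trp73, Fas, Kitl and Cd82 lay below this floor. Levels are TPM, given as the mean ± SD over set means (n = 2 wild-type and n = 3 mutant sets). Fold changes are mutant minus wild type on the log2(TPM + 1) scale, ± SE, which understates the change of low genes. Adjusted p are Benjamini-Hochberg values from limma over all 12797 tested genes, and a gene is said to rise or fall only where that value was under 0.05.

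The libraries carried the labelled cell type. Summed over 8 embryonic stem cell markers they held 10830 to 11555 TPM in wild-type and 9698 to 11540 TPM in mutant cells. Most of this sum was Dppa5a, at 7756 to 8369 TPM in wild-type and 6821 to 8610 TPM in mutant libraries. Nanog and Zfp42 fell and Esrrb and Tdgf1 rose. Pou5f1 (1224 TPM in wild-type and 1123 TPM in mutant cells) and Sox2 (292 and 285 TPM) missed the threshold, although every mutant library lay below the controls for Pou5f1. Klf4 (62.8 and 71.1 TPM) missed it too, with every mutant library above the controls. Over the 8 markers, all mutant libraries lay above the controls for 3 and below for 3. For all tested genes these shares were 12.4% and 19.4%. Of 8 fibroblast markers Dcn and Postn were listed at 0 in every library, and the list summed to 2.02 to 4.48 TPM in wild-type and 1.27 to 2.17 TPM in mutant libraries. The 6 primitive endoderm markers all stayed under 1 TPM in every library and summed to 0.37 to 1.32 TPM in wild-type and 0.60 to 1.54 TPM in mutant libraries. Of 6 neural markers, which summed to 24.9 to 28.9 TPM in wild-type and 22.1 to 32.0 TPM in mutant libraries, Sox1 rose by 0.85 on the log2 scale, Tubb3 (-0.08) and Nes (-0.17) missed the threshold, and Pax6 was listed near 0. The part of these shifts in the results below was not tested. Sequencing depth is unknown, since every library sums to the same total within rounding.

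The p53 transcript fell, while most tested targets of this list had positive fold changes, of which 11 passed the threshold. Trp53 dropped to 0.708 of its wild-type level, Mdm2 rose 1.26-fold, and of 27 tested targets 11 rose (40.7%) and 1, Sesn1, fell (3.70%). Of all tested genes 6.97% rose (892 genes) and 10.5% fell (1350 genes), 17.5% in all. The members were chosen with earlier results of these data known, so the shares describe this list and are not an independent test. On the log2(TPM + 1) scale the largest rises among the targets were those of Ephx1 (1.02) and Psrc1 (0.96), followed by Cgrrf1 (0.91) and Btg2 (0.89). The median log2 fold change of the 27 tested targets was 0.29, against -0.04 for all tested genes, and 25 of the 27 lay above 0, where 45.3% of all tested genes did. In bulk RNA, fewer cells of a type and less RNA per cell cannot be told apart.

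Many genes outside the pathway changed too, and how they split depended on the scaling. With median-of-ratios scaling the split of all calls was 1095 higher and 1096 lower, and with quantile normalization 1073 and 1039. All 6 mutant libraries lay above all 4 wild-type libraries for 16 of the 27 targets, against 12.4% of all tested genes. They lay below for Sesn1 and Ei24, against 19.4% of all tested genes. When wild-type set 1 or 2 was left out, the median log2 fold change of the tested targets was 0.27 or 0.39. Such a fit leaves 1 wild-type set, which is assumed to vary like the others. Without mutant set 1 the number of raised targets was 6, and 313 of the 12805 genes tested in that fit rose.

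**Figure D1:**
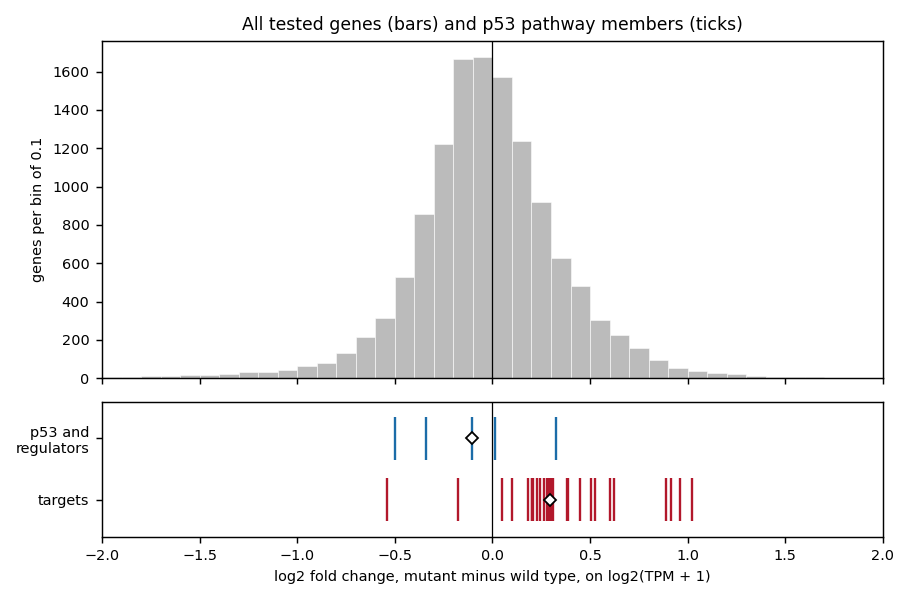
Upper panel: number of genes (vertical axis) per bin of 0.1 in log2 fold change, mutant minus wild type on log2(TPM + 1), for tested genes with changes between -2 and 2. Lower panel: each tick is 1 tested member, with p53 and its regulators above and targets below, and the white diamond is the median of each row, at -0.11 and 0.29; 25 of the 27 target ticks lie to the right of 0.

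Among the regulators, Trp53 itself and its neighbour Wrap53 fell and Mdm2 rose, while Mdm4 and Ppm1d did not pass the test. Trp53 (ENSMUSG00000059552.13, chr11:69580359-69591873 on mm10, plus strand) was the most abundant of the 32 tested members in wild-type cells. It read 174, 172, 194 and 187 TPM in the wild-type libraries, 125 and 120 TPM in mutant set 1, 149 and 146 TPM in mutant set 2, and 114 and 119 TPM in mutant set 3. Every mutant library lay below every wild-type library, and mutant set 2 lay nearest to the controls. The mean went from 182 ± 12.1 to 129 ± 16.3 TPM, a log2 fold change of -0.50 ± 0.11 (adjusted p = 0.0271). Over the 26 alternative settings Trp53 stayed lower, with adjusted p from 0.000549 to 0.183. The call was lost under quantile normalization, without the filter on low values, without the variance trend, with the set number as a block, and without either wild-type set or mutant sets 1 or 3.

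Wrap53 encodes a Cajal body protein of telomerase assembly, and in humans an antisense transcript of this gene has been described to sustain p53 mRNA. The mouse gene (ENSMUSG00000041346.11, chr11:69561758-69580255, minus strand) starts head to head with Trp53. Its libraries read 25.5, 25.4, 24.8 and 23.1 TPM in wild-type cells and 17.9 to 21.1 TPM, with a median of 19.5 TPM, in mutant cells. The groups did not overlap. The log2 fold change was -0.34 ± 0.08 (adjusted p = 0.0365), close to the threshold. Of single libraries, leaving out wild-type set 2 replicate 1 (adjusted p = 0.0542), mutant set 1 replicate 1 (0.0511) or mutant set 3 replicate 2 (0.0662) ended the call. It was also lost without the filter, without the variance trend, with the set number as a block, and without either wild-type set or mutant sets 1 or 3, with a range of 0.000964 to 0.201 over all alternatives. The ratio of Wrap53 to Trp53 TPM was 0.123 to 0.147 in wild-type and 0.128 to 0.185 in mutant libraries, so the neighbours' ratio overlapped between the genotypes.

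The shared promoter of this pair is shown because both genes fell. RefSeq (build GRCm38.p6, the assembly that mm10 denotes) places the Trp53 start at 69580359 and the nearer Wrap53 start at 69580250, 109 bases apart on opposite strands. The windows taken around each start, from 250 bases before to 50 after it, share 208 bases. A p53 response element is made of 2 copies of a decamer, a motif of 10 letters. The decamer was searched here by exact match to its published consensus, which reads alike on both strands. One p53 decamer, in capitals, lies at -75 to -66 relative to the Trp53 start, and the same letters lie in the Wrap53 window. The Trp53 window is chr11:69580109-69580408, plus strand.

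Trp53: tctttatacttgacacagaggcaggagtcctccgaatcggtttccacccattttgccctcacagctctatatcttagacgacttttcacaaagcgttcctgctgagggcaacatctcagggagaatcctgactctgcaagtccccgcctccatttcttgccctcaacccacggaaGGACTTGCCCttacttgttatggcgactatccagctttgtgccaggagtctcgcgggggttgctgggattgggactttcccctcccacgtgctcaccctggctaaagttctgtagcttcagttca

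A decamer alone is common. It occurs in 8.36% of the 32851 RefSeq promoter windows of this length, and in 13 of the 46 windows of members (28.3%), which belong to 12 of the 30 members with a window. Overlapping windows of Aen, and those of Trp53 and Wrap53, share a site and are counted for each window. A match describes letters and is not a measured binding site. Sequences are printed only for members past the threshold. Ei24, Gtse1, Ppm1d and Rap2b, which missed it, hold a decamer too. The windows of the raised Ephx1, Psrc1, Cgrrf1, Btg2, Bloc1s2, Ercc5 and Pmm1 hold none. Whether decamers go with the calls was not tested.

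Mdm2 (ENSMUSG00000020184.15, chr10:117688875-117710758, minus strand) moved the other way from Trp53. Its wild-type libraries read 67.9, 63.2, 66.2 and 65.2 TPM, and the mutant libraries 84.2 and 77.0 TPM in set 1, 80.4 and 87.0 TPM in set 2, and 88.2 and 79.0 TPM in set 3. The lowest mutant library was above the highest wild-type library. The log2 fold change was 0.33 ± 0.07 (adjusted p = 0.0225), from 65.6 ± 0.0955 to 82.6 ± 1.76 TPM. Mdm2 stayed higher in all 26 alternatives, with adjusted p from 0.000340 to 0.147, and lost the call without either wild-type set, without mutant set 3, without the variance trend and with the set number as a block. The ratio of Mdm2 to Trp53 TPM was 0.342 to 0.390 in wild-type and 0.540 to 0.773 in mutant libraries, with no overlap. A p53 decamer lies at -186 to -177 relative to the RefSeq start of Mdm2 (chr10:117710925-117710954, minus strand), in capitals here with 10 bases on each side. Mdm2 sequence outside the window of this start was not searched.

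Mdm2: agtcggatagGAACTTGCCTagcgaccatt

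Mdm4, the p53-binding relative of Mdm2, read 122.01, 120.62, 101.13 and 105.87 TPM in wild-type and 87.5 to 117 TPM, with a median of 106 TPM, in mutant libraries. The 2 groups overlapped, and the 2 libraries of mutant set 1 (117 and 87.5 TPM) spanned the whole mutant range. The log2 fold change of Mdm4 was -0.11 ± 0.09 (adjusted p = 0.447), and it was 0.01 without wild-type set 1. Ppm1d (Wip1 in common use) read 9.01, 10.5, 11.4 and 10.8 TPM in wild-type and 9.56 to 12.1 TPM, with a median of 10.3 TPM, in mutant libraries. These values overlapped throughout, with a log2 fold change of 0.01 ± 0.12 (adjusted p = 0.950, 95% interval -0.27 to 0.29) whose sign changed in 6 of the 15 fits that left out a set or a library. Trp73, which encodes the related factor p73, was untested at 0.42 to 0.75 TPM in wild-type and 0.95 to 1.45 TPM in mutant libraries. Its groups did not overlap, and in the fit with no filter its log2 fold change was 0.43 ± 0.12 (adjusted p = 0.111).

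**Figure D2:**
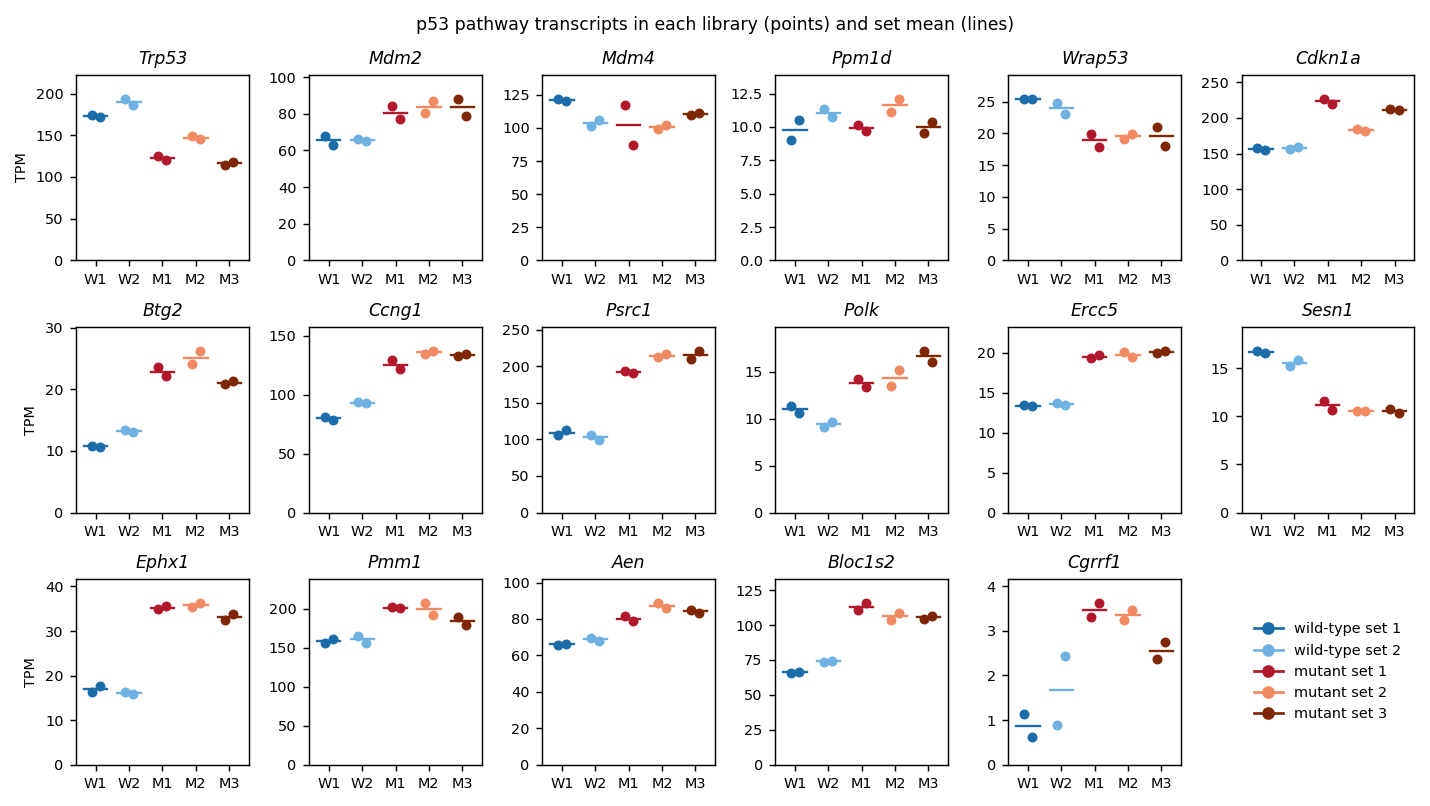
TPM (vertical axis, from 0) of the 15 members past the threshold and of Mdm4 and Ppm1d in each library (points) and each set's mean (lines); W1 and W2 are the wild-type sets and M1 to M3 the mutant sets. For Trp53, Wrap53 and Sesn1 all mutant points lie below the wild-type points, for Mdm2 and 10 targets all lie above, and for Cgrrf1, Mdm4 and Ppm1d the points overlap.

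The 7 cell cycle targets all had positive fold changes, and 4 of them rose: Psrc1, Btg2, Ccng1 and Cdkn1a. Their median log2 fold change was 0.45. Psrc1 (ENSMUSG00000068744.12, chr3:108383839-108388231, plus strand), a microtubule-binding protein of the spindle, read 106, 113, 106 and 99.7 TPM in wild-type libraries. In the mutant sets it read 193 and 190 TPM, 212 and 216 TPM, and 210 and 221 TPM. The groups were far apart, at 106 ± 4.61 and 207 ± 13.4 TPM, with a log2 fold change of 0.96 ± 0.08 (adjusted p = 0.00267), and Psrc1 passed the threshold in all 26 alternatives.

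Btg2 (chr1:134075170-134079120, minus strand), an antiproliferative protein that binds the CCR4-NOT deadenylase, nearly doubled. It read 10.84, 10.71, 13.43 and 13.04 TPM in the wild-type libraries and 20.9 to 26.2 TPM, with a median of 22.9 TPM, in the mutant libraries. All mutant libraries were higher, and the log2 fold change was 0.89 ± 0.12 (adjusted p = 0.00838). Ccng1 (chr11:40748552-40755311, minus strand) encodes cyclin G1, which brings the phosphatase PP2A to Mdm2. Its wild-type libraries read 81.2 and 79.0 TPM in set 1 and 93.7 and 92.7 TPM in set 2, and its mutant libraries 122 to 137 TPM with a median of 134 TPM. Mutant levels were again all higher, although the wild-type sets differed from each other, and the log2 fold change was 0.60 ± 0.09 (adjusted p = 0.00962). One exact decamer lies at -185 to -176 relative to the Ccng1 start (chr11:40755452-40755481, minus strand, decamer in capitals). The bases directly before it are close to the consensus without matching it exactly.

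Ccng1: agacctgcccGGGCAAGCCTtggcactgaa

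Cdkn1a (ENSMUSG00000023067.14, chr17:29090976-29100727, plus strand) encodes p21, the inhibitor of cyclin-dependent kinases through which p53 arrests the cell cycle. It was the second most abundant of the raised targets in mutant cells, after Psrc1. The wild-type libraries read 157, 155, 156 and 159 TPM. The mutant libraries read 227 and 219 TPM in set 1, 185 and 181 TPM in set 2, and 213 and 210 TPM in set 3. All mutant libraries were higher than all wild-type libraries, and mutant set 2 was the lowest of the mutant sets. The log2 fold change was 0.39 ± 0.09 (157 ± 1.10 to 206 ± 20.7 TPM, adjusted p = 0.0345). Cdkn1a stayed higher in all 26 alternatives, with adjusted p from 0.000712 to 0.177, and lost the call without the filter, without the variance trend, with the set number as a block, and without either wild-type set or mutant sets 1 or 3. Annotated exons of an opposite-strand gene overlap Cdkn1a in GENCODE M21, and the strand setting of the counting is unknown from the sources used here, so reads of the 2 genes may not be separated.

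Of the 30 members with a promoter window, Cdkn1a was the only one with an exact p53 site. Such a site is a pair of decamers 0 to 13 bases apart, both matching the consensus in every letter. It occurs in 24 of all 32851 windows (0.0731%). Decamers with a mismatch were not searched, so other members may hold a site that the search missed. The exact pair of Cdkn1a lies in the window of the upstream RefSeq start (chr17:29090729-29091028, plus strand). Its position is -73 to -42 relative to that start, with a spacer of 12 bases. The downstream start lies 2790 bases away. The capitals mark the decamers that match exactly. The bases directly after the second of them are close to the consensus but not exact, so the pair they would form is not marked.

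Cdkn1a: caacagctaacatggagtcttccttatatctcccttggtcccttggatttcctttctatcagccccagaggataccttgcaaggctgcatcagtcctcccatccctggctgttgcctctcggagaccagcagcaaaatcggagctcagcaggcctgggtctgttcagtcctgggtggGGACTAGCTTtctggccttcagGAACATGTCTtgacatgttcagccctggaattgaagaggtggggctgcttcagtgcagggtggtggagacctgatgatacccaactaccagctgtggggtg

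The remaining cell cycle targets missed the threshold. Plk2, a polo-like kinase of centriole duplication, had wild-type set means of 11.8 and 13.7 TPM and mutant set means of 16.4, 21.4 and 15.9 TPM (log2 fold change 0.45 ± 0.15, adjusted p = 0.0752). Gtse1, a microtubule-associated protein that restrains p53 in G2 phase, had wild-type set means of 61.0 and 61.0 TPM and mutant set means of 69.1, 83.8 and 71.2 TPM (0.28 ± 0.10, adjusted p = 0.0894). For both genes all mutant libraries were above all wild-type libraries. Plk3, a stress-responsive polo-like kinase, overlapped between genotypes, with set means of 6.2 and 8.6 TPM in wild-type and 9.94, 9.14 and 8.55 TPM in mutant cells (0.29 ± 0.15, adjusted p = 0.208).

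Of the 4 DNA repair targets, Ercc5 and Polk rose and Ddb2 and Xpc missed the threshold. Ercc5, the nuclease XPG of nucleotide excision repair, read 13.4, 13.3, 13.7 and 13.4 TPM in wild-type libraries and 19.4 to 20.2 TPM, with a median of 19.9 TPM, in mutant libraries. Both groups were tight and well apart, with a log2 fold change of 0.52 ± 0.08 (adjusted p = 0.0127). Polk, the translesion polymerase kappa, read 11.4, 10.6, 9.16 and 9.66 TPM in wild-type libraries and 13.3 to 17.2 TPM, with a median of 14.7 TPM, in mutant libraries. The groups did not overlap, and the log2 fold change was 0.51 ± 0.12 (adjusted p = 0.0339). Of single libraries, mutant set 1 replicate 1 (adjusted p = 0.0536 without it) and mutant set 2 replicate 2 (0.0501) decided this call. It was lost too without the filter, with the set number as a block, and without either wild-type set or mutant sets 1 or 3, with a range of 0.000807 to 0.215 over all alternatives.

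Polk has a decamer at -231 to -222 relative to one of its 2 RefSeq starts (chr13:96519399-96519428, minus strand; decamer in capitals).

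Polk: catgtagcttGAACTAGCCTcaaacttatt

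Ddb2 and Xpc are the damage sensors of nucleotide excision repair. Ddb2 had set means of 15.5 and 14.1 TPM in wild-type and 16.7, 15.6 and 19.5 TPM in mutant cells (log2 fold change 0.20 ± 0.12, adjusted p = 0.267). Exons of Acp2, itself at 7.27 to 13.3 TPM, overlap Ddb2 on the opposite strand. Xpc had set means of 12.6 and 12.6 TPM in wild-type and 12.7, 12.8 and 13.5 TPM in mutant cells, and its 95% interval ran from -0.17 to 0.26 around a log2 fold change of 0.05 (adjusted p = 0.746).

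Among the 8 stress and metabolism targets, Ephx1 and Pmm1 rose and Sesn1 fell. Ephx1 (ENSMUSG00000038776.13, chr1:180976210-181020904, minus strand), the microsomal epoxide hydrolase that detoxifies reactive epoxides, read 16.4, 17.7, 16.4 and 15.9 TPM in wild-type libraries. In the mutant sets it read 34.97 and 35.58 TPM, 35.5 and 36.3 TPM, and 32.5 and 33.8 TPM. Every mutant library was well above every wild-type library, with a log2 fold change of 1.02 ± 0.08 (adjusted p = 0.00267), and Ephx1, like Psrc1, passed the threshold in all 26 alternatives, with adjusted p no higher than 0.0385. Pmm1, a phosphomannomutase, read 156, 161, 166 and 156 TPM in wild-type and 180 to 207 TPM, with a median of 197 TPM, in mutant libraries. The groups did not overlap and differed by 0.29 ± 0.07 on the log2 scale (adjusted p = 0.0326). Without mutant set 3 replicate 1 the adjusted p of Pmm1 was 0.0522, within a range of 0.000457 to 0.172 over the alternatives, and the call was also lost without the filter, without the variance trend, with the set number as a block, and without either wild-type set or mutant set 1.

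Sesn1 (ENSMUSG00000038332.13, chr10:41809935-41908424, plus strand) encodes sestrin 1, a stress protein that restrains the growth kinase complex mTORC1, and it was the only target to fall. It read 16.8, 16.6, 15.2 and 15.9 TPM in the wild-type libraries and 11.6 and 10.7, 10.6 and 10.6, and 10.8 and 10.3 TPM in the mutant sets. All mutant libraries were lower, at 10.7 ± 0.322 TPM against 16.1 ± 0.813 TPM, with a log2 fold change of -0.54 ± 0.09 (adjusted p = 0.0153). Its direction was thus that of Trp53. Sesn1 has a decamer too, at -173 to -164 relative to the second of its 2 RefSeq starts (chr10:41887256-41887285, plus strand; decamer in capitals).

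Sesn1: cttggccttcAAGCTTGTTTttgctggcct

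The other 5 members of this group missed the threshold. Trp53inp1, a nuclear and autophagy protein that promotes p53 activity, had set means of 62.1 and 62.2 TPM in wild-type and 72.5, 73.1 and 70.2 TPM in mutant cells (log2 fold change 0.21 ± 0.07, adjusted p = 0.0764). The adenylate kinase gene Ak1 had set means of 38.4 and 39.3 TPM against 46.1, 51.8 and 43.0 TPM (0.26 ± 0.10, adjusted p = 0.103). For both, all mutant libraries were above all wild-type libraries. Zmat3, an RNA-binding zinc finger protein, gave 0.20 ± 0.09 (adjusted p = 0.165), and Phlda3, an inhibitor of the kinase Akt, gave 0.23 ± 0.13 (adjusted p = 0.247). Their libraries overlapped between the genotypes. Ei24, an endoplasmic reticulum protein of autophagy, had set means of 92.4 and 91.5 TPM against 77.8, 77.5 and 89.2 TPM. All 6 of its mutant libraries were below the controls, yet the test gave -0.17 ± 0.09 (adjusted p = 0.192).

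None of the receptors, surface and secreted proteins passed the adjusted threshold in limma, where 17.5% of all tested genes did. Of these 7 members 4 were testable. Eda2r, a receptor of ectodysplasin A2, had set means of 12.2 and 13.6 TPM in wild-type and 15.4, 15.4 and 15.5 TPM in mutant cells (log2 fold change 0.24 ± 0.09, adjusted p = 0.115). It was the one member of the group whose mutant libraries all lay above the controls. Gdf15, a secreted stress cytokine, had set means of 4.99 and 6.48 TPM against 9.11, 7.2 and 7.0 TPM (0.38 ± 0.16, adjusted p = 0.137). The death receptor gene Tnfrsf10b gave 0.31 ± 0.13 (adjusted p = 0.152) and Perp, a membrane protein of desmosomes, gave 0.10 ± 0.15 (adjusted p = 0.661) at a mutant mean of 1.78 TPM. Fas, the other death receptor, was at 0 to 0.36 TPM over all libraries, and Kitl, the stem cell factor, at 0.13 to 0.36 TPM apart from 1.5 TPM in mutant set 2 replicate 2. The tetraspanin gene Cd82 was at 0.14 to 0.57 TPM in wild-type and 0.37 to 1.25 TPM in mutant libraries, and with no filter its log2 fold change was 0.37 ± 0.12 (adjusted p = 0.158).

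Of the 4 remaining targets, Cgrrf1, Bloc1s2 and Aen rose. Bloc1s2 (chr19:44139246-44146446, minus strand), a subunit of complexes that build and move lysosome-related organelles, read 65.7, 66.5, 73.8 and 74.4 TPM in wild-type and 104 to 116 TPM, with a median of 108 TPM, in mutant libraries. The gap between the groups was wide, with a log2 fold change of 0.62 ± 0.08 (adjusted p = 0.00710), and a processed pseudogene named after it reached at most 1.92 TPM. Cgrrf1, a RING finger protein linked to growth control, was low throughout: it read 1.13, 0.62, 0.90 and 2.43 TPM in wild-type and 2.36 to 3.62 TPM, with a median of 3.28 TPM, in mutant libraries. One wild-type library, set 2 replicate 2, lay inside the mutant range. The log2 fold change was 0.91 ± 0.20 (adjusted p = 0.0266). Without the other library of that set, replicate 1, it was 0.70 (adjusted p = 0.119, range 0.00282 to 0.140 over the alternatives). The Cgrrf1 call was also lost without the filter, with the set number as a block, and without either wild-type set or mutant set 1.

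Aen, an exonuclease that promotes apoptosis, read 65.9, 66.3, 69.7 and 68.2 TPM in wild-type and 78.7 to 88.7 TPM, with a median of 84.3 TPM, in mutant libraries. These did not overlap, and the log2 fold change was 0.31 ± 0.07 (adjusted p = 0.0327). The Aen call was lost without mutant set 1 replicate 1 (adjusted p = 0.0524, range 0.000218 to 0.177 over the alternatives), and also without the filter, without the variance trend, with the set number as a block, and without any 1 of the 5 sets. Rap2b, a small GTPase, had set means of 2.90 and 3.22 TPM against 3.72, 3.48 and 3.64 TPM (0.18 ± 0.13, adjusted p = 0.351). Opposite-strand genes whose exons overlap Rap2b and Plk3 reached at most 1.41 and 0.84 TPM. Aen has 2 RefSeq starts, and a decamer lies at 10 to 19 relative to one and at -121 to -112 relative to the other (chr7:78895927-78895956, plus strand; decamer in capitals).

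Aen: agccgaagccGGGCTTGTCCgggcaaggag

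**Figure D3:**
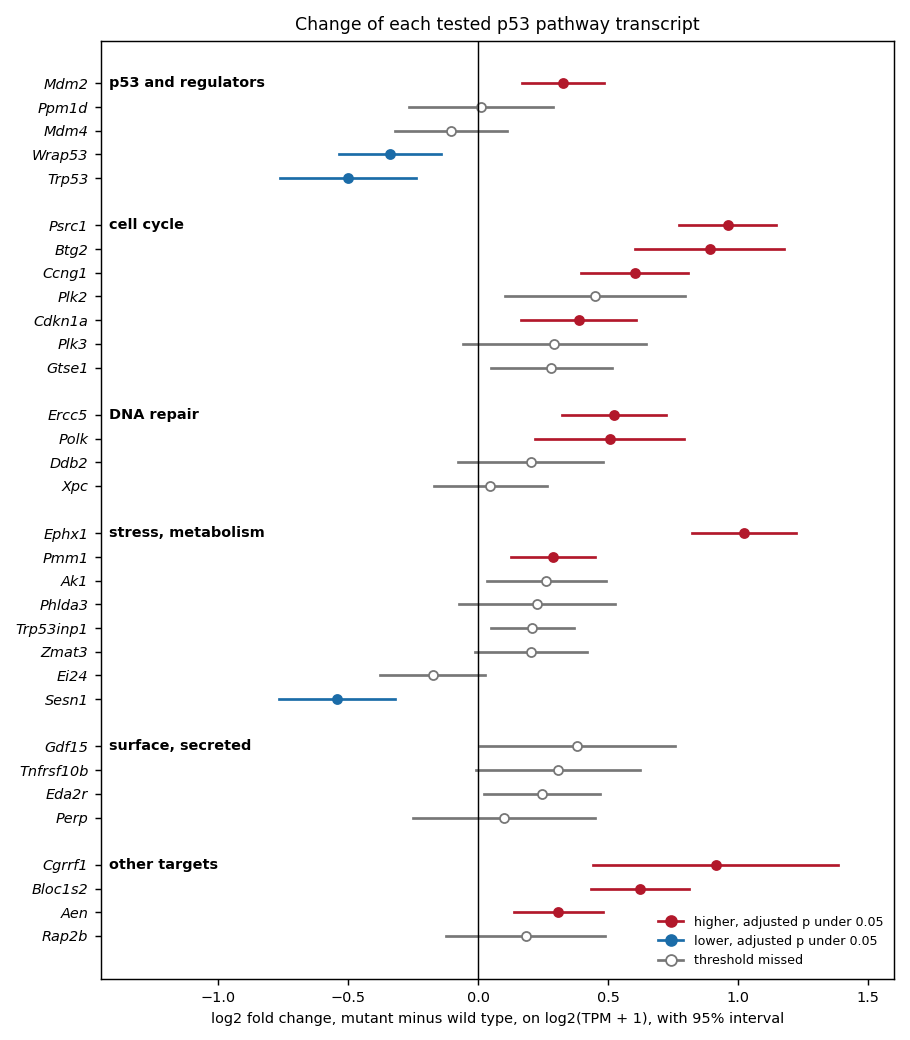
Log2 fold change (horizontal axis, mutant minus wild type on log2(TPM + 1)) of each of the 32 tested members by role, with its 95% interval from limma; filled points passed the adjusted threshold and open points missed it. The points of the cell cycle, DNA repair, surface and other target groups lie to the right of 0, although several of their intervals cross 0, the points of Sesn1 and Ei24 lie to the left, with the interval of Ei24 crossing 0, and the regulators lie on both sides.

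Most tested targets of this list stood above the wild-type mean in each mutant set. Against the wild-type mean, the median difference over the 27 tested targets was 0.34 in mutant set 1, 0.32 in set 2 and 0.26 in set 3 on the log2(TPM + 1) scale, and 25 of the 27 were above 0 in each. By a limma F test over the 3 mutant sets, 6 of the 32 members (18.8%) differed between these sets. That share was near the 19.6% of all tested genes, so it is not particular to the members. Trp53 (adjusted p = 0.00322), Plk2 (0.0204), Gtse1 (0.0195) and Ak1 (0.0307) were highest in mutant set 2, where Cdkn1a (0.00315) was lowest. Ei24 (0.0145) was highest in mutant set 3. Thus the mutant set with the most Trp53 RNA had the least Cdkn1a RNA of the 3, an order read from 3 sets after the values were seen. The wild-type sets differed for Ccng1 (adjusted p = 0.0337) and Plk3 (0.0325), both higher in set 2, 2 of 32 members (6.25%) against 2.75% of all tested genes. In these set tests the spread is that between the 2 libraries of a set.

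**Figure D4:**
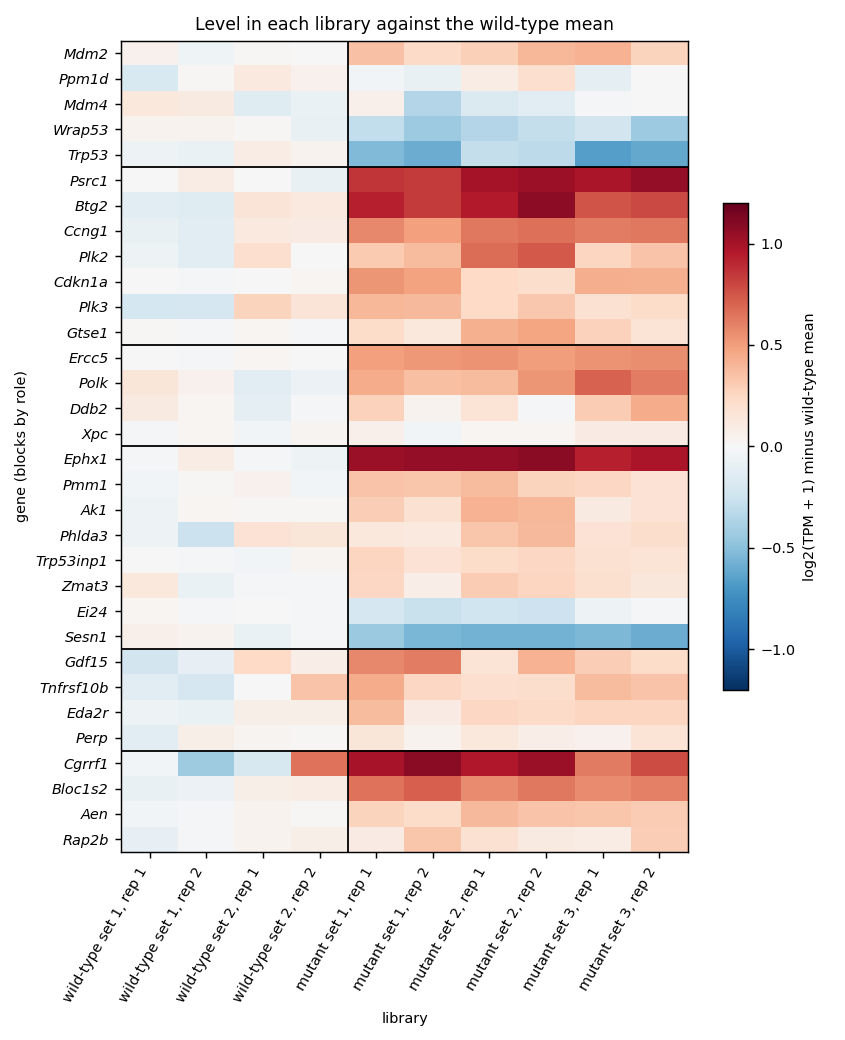
Difference of log2(TPM + 1) from the wild-type mean (colour, red higher and blue lower) for the 32 tested members (rows, in blocks by role) in each of the 10 libraries (columns; the line divides wild type from mutant). Psrc1, Btg2, Ephx1 and Cgrrf1 are the reddest rows in the mutant columns, Trp53, Wrap53 and Sesn1 are blue in all 6, and the paler Trp53 columns of mutant set 2 match its higher TPM.

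Other parts of the pathway were read from lists of genes that are not members. Of 21 upstream kinases, acetyltransferases and other cofactors of p53, none rose in limma, beside 6.97% of all tested genes. The median of these 21 genes was -0.18, below the -0.04 of all tested genes. All mutant libraries lay below the controls for 6 of them (28.6%), against 19.4% of all tested genes, and above for none, against 12.4%. Of 11 other restrainers of p53, 1 rose (9.09%) and 2 fell (18.2%), beside 6.97% and 10.5% of all tested genes, so these shares stand near those of the whole table. Their median was -0.21. Rchy1, a ubiquitin ligase for p53, rose from 33.4 ± 0.463 to 43.1 ± 2.42 TPM (0.36 ± 0.08, adjusted p = 0.0298). The deacetylase genes Sirt1 (-0.51 ± 0.11, adjusted p = 0.0253) and Hdac1 (-0.30 ± 0.08, adjusted p = 0.0450) fell.

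A list of 13 further targets linked to cell death did not lean one way. It leaves out Aen, Ei24, Fas, Perp and Tnfrsf10b, which are counted among the members. Of the 13 genes 2 rose and 2 fell (15.4% each, beside 6.97% and 10.5% of all tested genes). The other 9 missed the threshold, and the median log2 fold change of the list was 0.06. Casp6, an effector caspase, rose by 0.48 ± 0.11 (5.97 to 8.69 TPM, adjusted p = 0.0326), and Siva1, a death-domain-binding protein, rose by 0.37 ± 0.07 (86.3 to 112 TPM, adjusted p = 0.0162). Pmaip1, which encodes the BH3-only protein Noxa, had a log2 fold change of -0.64 ± 0.11 (17.0 to 10.6 TPM, adjusted p = 0.0151), and Steap3, a metalloreductase, one of -0.67 ± 0.13 (4.59 to 2.52 TPM, adjusted p = 0.0215). A further 25 targets with roles outside cell death, 21 of them tested, gave 4 rises (19.0%) and 1 fall (4.76%) and a median of 0.13. Dcxr, a carbonyl reductase, rose by 1.34 ± 0.20 (15.5 to 41.0 TPM, adjusted p = 0.0103), and Ddit4, an inhibitor of mTORC1, rose by 1.01 ± 0.12 (86.7 to 175 TPM, adjusted p = 0.00656). Crip2 (0.52 ± 0.08, adjusted p = 0.0109) and Abhd4 (0.50 ± 0.13, adjusted p = 0.0405) rose less. Tigar, which lowers glycolytic flux, fell with Sesn1 and Trp53, from 35.2 ± 1.48 to 23.0 ± 2.22 TPM (-0.60 ± 0.10, adjusted p = 0.0148).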

How the data were processed

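The authors deposited 1 table of TPM. Trim Galore, STAR, RSEM and DESeq2 and the build mm10 are named in the submitters' processing notes, while versions, settings, strandedness and gene annotation are not given in the sources used. Per the labels' protocols, poly(A) RNA was bead-captured before library preparation. TPM holds no depth, and since its total is fixed, more of an abundant transcript means less of the rest. The columns were matched to samples by name. Genes averaging 1 TPM or more were tested (12797), log2(TPM + 1) was averaged per set, and 3 mutant sets were compared with 2 wild-type sets in limma 3.58.1 (R 4.3.3, two-sided, eBayes with a trend, 3 residual and 4.01 prior degrees of freedom), adjusted over all tested genes. A second fit with a coefficient per set used the 10 libraries. The fit was tested on simulated data.

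Members, lists and roles were chosen with earlier results of these data known; the Trp53 window and the single decamers were chosen after values were seen. Library values are given for Trp53, Mdm2, Mdm4, Ppm1d, Cdkn1a and each member past the threshold (for some, the 6 mutant libraries by their lowest, median and highest), and from each other p53 list up to 4 such genes are named by size of change. One listed cofactor, Trp53rk, was not matched by name. One other gene of the cofactor list, which passed the threshold, is not reported here. Gene positions are from GENCODE M21 (34 of 36 members matched by identifier) and promoter windows from RefSeq (30 of 36). Alternatives were another pseudocount, other filters, scalings and variance settings, blocks, and leaving out sets or libraries. Some took the 10 libraries as separate samples, with or without the replicate number as a block. These count the 2 libraries of a set as independent, so the adjusted p that they add to the ranges are too small where the set is the unit. Figures were drawn with matplotlib 3.10.9.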

Additional observations from a re-analysis of the deposited data

Results flagged for a closer look

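In 72 groups of library values of the members (4 wild-type or 6 mutant libraries of 1 gene), 2 held a library far from the rest, where chance gives about 1 in 20 groups. Kitl was at 1.5 TPM in mutant set 2 replicate 2 and at 0.13 to 0.22 TPM in the other 5 mutant libraries. Ak1 was at 37.3 TPM in wild-type set 1 replicate 1 and at 39.3 to 39.6 TPM in the other 3 wild-type libraries.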

How the results depend on the processing

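The 11 raised targets became 6 without the filter on low values and 20 with the 10 libraries taken as separate samples. They numbered 6 to 11 when a mutant set or a library was left out. Over all tested genes the 892 that rose became 250 of 26268 without the filter and 2166 of 12797 with the libraries separate. Leaving out a mutant set or a library gave 313 to 1063. The 1 fallen target became 2 with the libraries separate, where the 1350 fallen genes became 3103. It stayed 1 when a mutant set or a library was left out. The 3 called regulators became 1 without the filter, 0 without the variance trend and 0 to 3 on leaving out a mutant set or a library. Without the variance trend 709 of all tested genes rose and 930 fell. The targets' median of 0.29 became 0.36 under quantile normalization and ranged from 0.27 to 0.39 on leaving out any set or library. Replicate and set numbers are shared between genotypes, and whether equal numbers pair them is not labelled. Deviations of equally numbered sets correlated at -0.16 and -0.09. With 2 wild-type sets these deviations mirror each other, so the correlations cannot decide whether equally numbered sets were handled together. With the replicate number as a block 19 targets rose and 2 fell, beside 2054 and 2944 of all tested genes. With the set number as a block 5 rose, 0 fell and 0 regulators were called, beside 209 rises and 362 falls over all tested genes. Leaving out a set or library moved Ppm1d between -0.072 and 0.096 and Mdm4 between -0.219 and 0.0087 (log2), which turned their signs. All 15 called members kept their direction in every alternative that tested them. Leaving out a set also lowers the number of sets that estimate the spread. Depth, and with it counting error, is unknown.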
